A study of Mus musculus with 454 samples.

Results

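The genes described here write DNA methylation or take part in its removal: Dnmt1, Dnmt3a, Tet1, Tet2, Tet3, Gadd45a, Gadd45b and Gadd45g. They were taken as a list of symbols, matched to the Ensembl identifiers of the count table, and all 8 of 43346 genes were found. The 454 RNA-seq libraries came from 4 parts of the mouse brain. The labels give them as AMY (amygdala, 115 libraries), Nac (nucleus accumbens, 112), PFC (prefrontal cortex, 112) and VTA (ventral tegmental area, 115). Per the series title, the study asks how social isolation in adolescence bears on the transcriptome and on sex differences in reward. Females (F) and males (M) were group-housed (G) or socially isolated (SI), and received cocaine at 7.5 mg/kg or saline (0 mg/kg) on an acute (A) or chronic (CHR) schedule. This made 16 groups in each region and 64 in all, with 5 to 8 libraries in a group. Strain, age, the number of injections, and the time between treatment and dissection are not stated in the labels. Nothing in the labels ties each library to an animal of its own, so the p-values speak of the spread among these samples, part of which may be technical. Sample titles hold numbers in the 500s, 1000s, 1100s and 1200s, called number series below, whose meaning the labels do not give. Acute groups were all in the 1000s and 1100s, chronic saline in the 500s and 1200s, and chronic cocaine in the 1000s and 1200s.

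Cytosines of CpG sites are methylated by DNA methyltransferases. DNMT1 restores the mark on the new strand after DNA replication and is also abundant in neurons that no longer divide, while DNMT3A methylates sites anew, including the CA sites typical of neuronal DNA. TET1, TET2 and TET3 oxidise 5-methylcytosine to 5-hydroxymethylcytosine and further products, which base excision repair can replace with unmodified cytosine. GADD45 proteins are small stress-inducible adaptors without a known enzyme activity that have been linked to active demethylation, and Gadd45b is known as a gene induced by neuronal activity.

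The median library held 21.7 M (mega-counts) and the range was 11.2 to 52.3 M. A value of 1 CPM, a count per mega-count of the library after scaling with TMM factors, therefore stands for about 22 reads. Region marker lists, as mean log2 CPM (with 0.5 added), had their highest medians in the region of that label. The dopamine neuron list had medians of 8.02 and 8.72 in acute and chronic VTA libraries and reached at most 4.07 in a library of another region. The striatal list had medians of 8.35 and 8.63 in Nac (lowest library 7.28) and reached 6.88 in a PFC library. The cortical glutamatergic list had medians of 7.08 and 7.04 in PFC (lowest 6.34) and reached 6.11 in a Nac library. The medial amygdala and hypothalamus list was lower, with medians of 4.07 and 3.90 in AMY. Its lowest AMY library (2.77) lay below its highest VTA library (2.99). By the criteria given under the processing, 29 libraries stood apart (AMY 10, Nac 9, PFC 4, VTA 6). Of these, 3 were libraries labelled female, 1 in AMY and 2 in Nac, in which Y-linked transcripts reached 5% or more of the male median. They stayed in the tests. Calls lost without them are named beside the result, and gains are named or counted for some comparisons. All 8 genes passed the filter on low counts in every region, so each comparison has 32 gene-by-region tests.

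The methyltransferases were well measured in every region. For Dnmt1 (GRCm38, chr9:20907209-20959888, minus strand) the AMY libraries had a median of 82.9 CPM (lowest 63.2, highest 103), and those of Nac 72.0 (34.6 to 84.0), PFC 86.2 (59.9 to 98.0) and VTA 61.6 (40.3 to 79.7). Dnmt3a (chr12:3806007-3914443, plus strand) had its highest median in Nac, 155 CPM (82.3 to 408), followed by AMY at 113 (78.5 to 147), PFC at 101 (67.9 to 133) and VTA at 100.1 (52.2 to 125). Dnmt1 was thus lowest in VTA and Dnmt3a highest in Nac, although single libraries of every pair of regions overlapped. Per kilobase of merged exons, the scale on which genes can be compared with each other, Dnmt1 was the most abundant of the 8 in AMY, Nac, PFC and VTA, with medians of 11.2, 9.76, 11.7 and 8.34 CPM per kb. Dnmt3a stood at 6.82, 9.32, 6.06 and 6.02. A noncoding gene on the other strand, Dnmt3aos, shares 133 exon bases with Dnmt3a, and reads there cannot be assigned by strand, since no source used here states the strand setting of the counting.

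Among the dioxygenases, Tet3 (chr6:83362373-83459084, minus strand) was the most abundant per kilobase and Tet1 (chr10:62804570-62908996, minus strand) the least. Tet3 medians were, from high to low, 90.1 CPM for Nac (40.2 to 208), 79.4 for PFC (40.2 to 128), 67.7 for AMY (46.8 to 81.7) and 48.9 for VTA (18.6 to 66.6). Tet2 (chr3:133463679-133545139, minus strand) had medians of 65.5, 55.1, 55.2 and 34.8 CPM in the same region order, and Tet1 had 22.3, 14.3, 17.5 and 23.1 CPM. Tet1 therefore departed from its relatives in VTA, which held the lowest median of Tet2 and Tet3 and, close to Nac, the highest of Tet1. Per kilobase, the medians ran from 2.93 to 5.40 for Tet3, from 2.06 to 3.88 for Tet2 and from 0.925 to 1.49 for Tet1.

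The GADD45 genes are short and few of their reads were counted, which makes them the least precisely measured of the 8. Gadd45a (chr6:67035096-67037457, minus strand) had medians of 5.14 CPM for VTA (3.77 to 7.95), 4.18 for PFC (1.73 to 10.8), 2.25 for AMY (1.31 to 4.18) and 1.99 for Nac (0.698 to 8.08). Gadd45b (chr10:80930073-80932204, plus strand) had medians of 9.40 CPM for PFC (5.66 to 20.03), 7.08 for Nac (2.27 to 12.4), 7.03 for AMY (3.65 to 12.8) and 4.35 for VTA (2.74 to 6.97). Gadd45g (chr13:51846678-51848468, plus strand) had closer medians, 10.6 CPM for PFC, 10.3 for AMY, 8.99 for Nac and 8.44 for VTA. Gadd45a and Gadd45b were thus ranked differently: VTA was highest for Gadd45a and lowest for Gadd45b. Their merged exons span 1.76, 1.59 and 1.17 kb for Gadd45a, Gadd45b and Gadd45g, against 7.38 kb for Dnmt1 and 15.5 to 16.9 kb for the other 4 genes. Per kilobase Gadd45g was nevertheless second to Dnmt1 in AMY, PFC and VTA, with medians of 8.82, 9.01 and 7.20 CPM per kb, and Gadd45a stood at 1.13 to 2.92. A library held a median of 42 to 109 reads of Gadd45a depending on the region. The noncoding gene E230016M11Rik shares 337 exon bases with Gadd45a on the other strand.

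**Figure D1:**
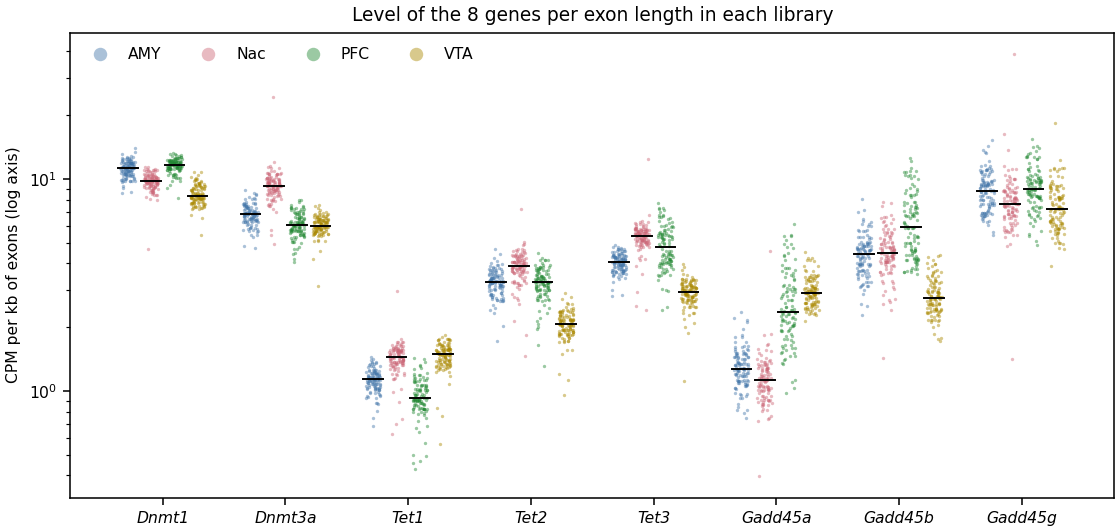
Level of each gene per exon length (CPM per kb, log axis) in each of 454 libraries, by region; points are libraries and black bars are medians over the 112 to 115 libraries of a region. Dnmt1 has the highest medians in each region (8.34 to 11.7), Tet1 the lowest in PFC (0.925), and the spread in PFC is wide for Gadd45a and Gadd45b.

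The promoters of the 3 GADD45 paralogs are shown because these genes differed by schedule in different sets of regions (below). The sequences are from the RefSeq promoter table of GRCm38.p6, 5′ to 3′ on the strand of the gene, from 250 bases before the RefSeq start. They were shortened at their downstream end by 50 bases in Gadd45a and 18 in Gadd45b, where an annotated transcript already begins. Capitals mark matches on either strand to the TATA box core TATAAA, the CCAAT box, the E-box CACGTG or the GC box core GGGCGG, and the windows lie at chr6:67037458-67037657 (minus strand), chr10:80929841-80930072 (plus strand) and chr13:51846425-51846674 (plus strand).
Gadd45a: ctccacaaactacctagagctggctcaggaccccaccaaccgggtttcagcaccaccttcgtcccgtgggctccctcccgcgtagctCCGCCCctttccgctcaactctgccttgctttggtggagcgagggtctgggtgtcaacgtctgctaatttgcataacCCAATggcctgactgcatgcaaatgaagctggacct
Gadd45b: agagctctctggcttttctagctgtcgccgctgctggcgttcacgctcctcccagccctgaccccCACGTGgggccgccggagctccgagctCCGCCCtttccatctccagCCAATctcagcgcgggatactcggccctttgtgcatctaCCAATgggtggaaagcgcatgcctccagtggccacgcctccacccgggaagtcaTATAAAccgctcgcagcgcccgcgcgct
Gadd45g: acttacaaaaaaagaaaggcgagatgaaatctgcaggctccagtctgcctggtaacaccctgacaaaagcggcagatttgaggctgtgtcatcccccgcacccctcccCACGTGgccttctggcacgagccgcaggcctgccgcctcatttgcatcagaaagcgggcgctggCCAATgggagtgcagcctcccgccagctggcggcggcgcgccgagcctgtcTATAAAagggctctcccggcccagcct
The TATA box core and the E-box were found for Gadd45b and Gadd45g, the GC box core, read on the other strand, for Gadd45a and Gadd45b, and the CCAAT box for all 3. The TATA matches began 46 bases before the start in Gadd45b and 27 in Gadd45g. Those positions lie in the 50 bases cut from the Gadd45a window and were not searched for that gene. Gadd45b held this box at 2 places, the nearer one 100 to 96 bases before the start. Windows of the same length before 32851 RefSeq starts held the CCAAT box in 28.4% to 33.8% of cases, the GC box core in 24.6% to 32.7%, the TATA box core in 9.14% to 12.4% and the E-box in 4.34% to 6.02%, depending on the length. Also searched were TGACG from the cAMP response element (in 12.7% to 17.8% of windows), the AP-1 motif TGACTCA (3.61% to 4.46%) and the glucocorticoid element arm AGAACA (13.2% to 16.1%). None of them is in the 3 windows shown, which says nothing about the factors that bind them. The windows held 9, 21 and 16 CpG for Gadd45a, Gadd45b and Gadd45g, where the medians over all windows of those lengths were 4, 5 and 6. A match is a description of the letters and not a site.

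Between regions, most genes of the transcriptome differed, and the 8 genes did too. The fit over all libraries called 43 of 48 gene-by-pair tests at an edgeR adjusted p under 0.05. The share of all 18627 tested genes called was 84.4% between AMY and Nac, 81.5% between AMY and PFC, 87.3% between AMY and VTA, 86% between Nac and PFC, 90.4% between Nac and VTA and 89.3% between PFC and VTA. The members' share was near that background. Dnmt1 was lower in VTA than in AMY (0.40 on the log2 scale, AMY minus VTA), Nac (0.20) and PFC (0.45). Dnmt3a was higher in Nac than in PFC by 0.61 and than in VTA by 0.62, while PFC and VTA did not differ beyond their spread (0.01). Tet3 was higher in Nac than in VTA by 0.88 and in PFC than in VTA by 0.72. Tet2 showed the same order for these pairs, at 0.90 and 0.64, and AMY and PFC did not differ for it (0.02). Tet1 was lower in PFC than in VTA (-0.63) and did not differ between Nac and VTA (-0.04).

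Gadd45a and Gadd45b had the widest differences between regions among the 8. Gadd45a was lower in AMY than in PFC (-0.95 on the log2 scale) and VTA (-1.19), and lower in Nac than in PFC (-1.12) and VTA (-1.36). Gadd45b was higher in PFC than in VTA by 1.11, and AMY and Nac did not differ (-0.04). Gadd45g spanned a narrower range, from -0.19 (Nac minus PFC) to 0.30 (PFC minus VTA), and AMY and PFC did not differ (-0.04). The calls of Dnmt1 between AMY and PFC and of Gadd45g between Nac and VTA were lost with DESeq2 size factors (-0.03, edgeR adjusted p = 0.0781) and with limma voom (0.07, adjusted p = 0.0865), respectively, and that of Dnmt1 also without the libraries that stand apart (-0.03, edgeR adjusted p = 0.05136). In bulk tissue, fewer cells of a type and less RNA per cell cannot be told apart, here and below.

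Housing, the condition in the title of the series, left the 8 genes close together. For example, over both schedules and doses, Gadd45b in PFC gave the most negative difference of isolated minus group-housed, -0.08 as log2 (SE 0.06, edgeR adjusted p = 0.9999), and Gadd45g in Nac the most positive, 0.06. No test of 32 was called, and 0 had an unadjusted p under 0.05. The background was equally empty: 0% of the genes tested were called for housing in each region. The 95% intervals of all 32 tests lay between -0.19 and 0.21, so that differences beyond that size in either direction are outside every interval. Within the 1000s the differences ran from -0.08 to 0.12, within the 1100s from -0.25 to 0.07 and within the 1200s from -0.13 to 0.12, with 0 called in each. DESeq2 and limma voom also called 0 of 32.

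The sexes were looked at apart. In females, isolation gave differences from -0.12 (Tet3, PFC) to 0.15 (Gadd45g, Nac), and in males from -0.11 (Gadd45b, Nac) to 0.15 (Tet1, Nac). For both, 0 of 32 tests were called, against 0% of all genes, with 1 unadjusted edgeR p under 0.05 in each sex: Tet3 in AMY of females (-0.10, adjusted p = 0.978) and Tet1 in Nac of males (0.15, adjusted p = 0.917). The change of the housing difference with sex was called for 0 of 32 tests and 0% of all genes. Its 4 unadjusted p-values under 0.05 were those of Tet3 in AMY (-0.15) and of Tet1 (-0.245), Dnmt3a (-0.19) and Tet2 (-0.20) in Nac. In each of these, isolated minus group-housed was lower in females than in males, and the lowest edgeR adjusted p was 0.404.

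Females and males differed little as well. Differences, females minus males, ran from -0.12 (Gadd45g, VTA) to 0.07 (Tet2, Nac), and 0 of 32 tests were called. Over all genes, 2.19% were called in AMY and 1.12% in PFC, against 0.272% in Nac and 0.332% in VTA. Unadjusted p-values under 0.05 were found for Dnmt1 in AMY (0.06, SE 0.02), Gadd45g in VTA (-0.12, SE 0.05) and Dnmt3a in PFC (-0.08, SE 0.04). Within the 1000s, 1100s and 1200s, 2, 6 and 2 of 32 had an unadjusted p under 0.05 and 0 were called. DESeq2 and limma voom called 0 of 32.

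Acute cocaine against acute saline is the comparison in which both arms hold the same number series. Gadd45b in PFC measured 6.46, 11.1 and 20.03 CPM (lowest, median, highest; n = 28) with saline and 8.68, 13.6 and 19.3 CPM (n = 30) with cocaine. The arms overlapped widely, and 24 of 30 cocaine libraries lay above the saline median. The difference was 0.29 as log2 (SE 0.07, edgeR adjusted p = 0.131), and 0.38 and 0.22 within the 1000s and the 1100s. Without the libraries that stand apart it was 0.35 (adjusted p = 0.0255), which is past the threshold. Gadd45g in AMY measured 7.88, 11.05 and 14.2 CPM with saline and 7.84, 12.7 and 17.9 CPM with cocaine, which differ by 0.22 (SE 0.06, adjusted p = 0.9996). Its unadjusted p was the only other one under 0.05.

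No member was called for acute cocaine in any region, and few genes were at all: 0% in AMY and Nac, 0.0647% in PFC and 0.0467% in VTA. In PFC the differences of the 8 genes had a median of 0.10, while the median over all genes was 0.0017. In the other regions the 8 genes went both ways. Tet1 was at -0.05, -0.06 and -0.08 and Gadd45g at 0.22, 0.11 and 0.10 for AMY, Nac and VTA. Tet3 in PFC stood at 0.11 (SE 0.06) and Gadd45a at 0.19 (SE 0.10). The other 30 tests had 95% intervals between -0.24 and 0.39. Within the 1000s and the 1100s 0 were called, with 3 and 4 unadjusted p-values under 0.05. DESeq2 and limma voom called 0 of 32. Nor did the acute response differ between housings: 0 of 32 tests were called, with 0% of all genes in AMY, Nac and PFC and 1.28% in VTA, and unadjusted p-values under 0.05 for Gadd45a in AMY (-0.37) and Gadd45g in PFC (-0.35).

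Chronic cocaine against chronic saline also gave no call among the 32 tests. Over all genes, 7.12% were called in PFC, against 0.0518% in AMY, 0.151% in Nac and 0.0817% in VTA. Gadd45a in PFC measured 1.73, 2.96 and 4.86 CPM with chronic saline (n = 26) and 1.95, 3.66 and 6.72 CPM with chronic cocaine (n = 28), and these differ by 0.27 (SE 0.11, edgeR adjusted p = 0.125). Dnmt1 (0.08, SE 0.04) and Tet3 (0.14, SE 0.07) in Nac were the others with an unadjusted p under 0.05. Within the 1200s, the only series with both arms, the 32 differences ran from -0.14 to 0.26. The cocaine arm held 8 libraries a region there, against 16 to 18 with saline. Isolated females with cocaine had a single library, so these differences are imprecise. DESeq2 and limma voom called 0 of 32.

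**Figure D2:**
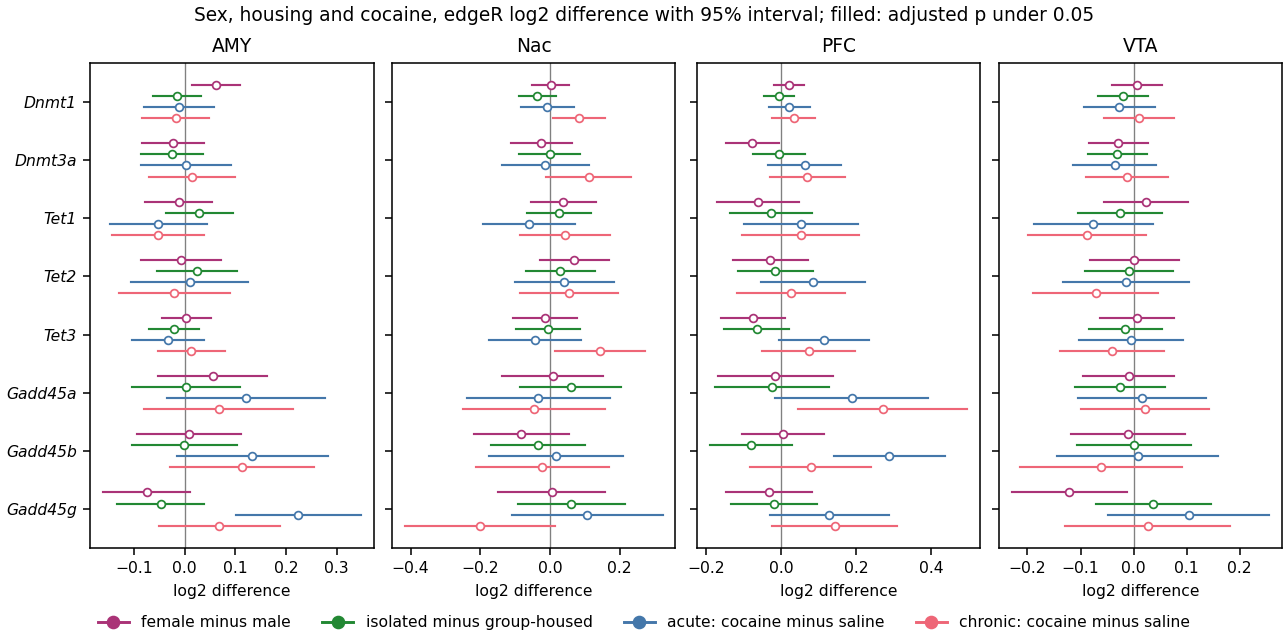
Differences for sex, housing, acute cocaine and chronic cocaine in each region (edgeR, log2 scale, points with 95% intervals; filled points would mark an adjusted p under 0.05). No point is filled; the housing intervals stay within -0.19 and 0.21, and the points farthest to the right are Gadd45b in PFC with acute cocaine (0.29) and Gadd45a in PFC with chronic cocaine (0.27).

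Schedule was the one condition of sex, housing, cocaine and schedule by which members were called. The GADD45 genes and Tet3 were lower in chronic than in acute libraries, in regions that differed from gene to gene, at both doses. Under cocaine 11 of 32 tests were called, 10 lower in chronic and 1 higher, and under saline 11 were called, all lower. Gadd45b, the paralog induced by neuronal activity, fell most clearly in PFC. It measured 8.68, 13.6 and 19.3 CPM with acute cocaine and 5.77, 7.51 and 10.7 CPM with chronic cocaine. With saline it measured 6.46, 11.1 and 20.03 CPM in the acute arm and 5.66, 7.03 and 11.4 CPM in the chronic one. Under cocaine the arms barely met: 28 of 28 chronic libraries lay below the acute median and 26 of 30 acute libraries above the highest chronic one. The difference, chronic minus acute, was -0.84 (SE 0.08, edgeR adjusted p = 1.5e-15) under cocaine, a ratio of 0.560, and -0.63 (SE 0.08, adjusted p = 8.7e-10) under saline, a ratio of 0.648. By p, Gadd45b was gene 10 of 17003 in PFC under cocaine.

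Gadd45b was lower in AMY too, with no call in Nac or VTA. In AMY it measured a median of 7.87 CPM with acute and 6.68 CPM with chronic cocaine, and 7.31 and 6.05 CPM with saline, with arms that overlapped. The differences were -0.32 (SE 0.07, edgeR adjusted p = 8.0e-04) under cocaine and -0.30 (SE 0.07, adjusted p = 0.001432) under saline. In Nac they were 0.03 and 0.07, and in VTA -0.13 and -0.06, for cocaine and saline, with no call.

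Gadd45a, the paralog first known from the response to DNA damage, fell in PFC alone among the regions. With saline it measured 3.71, 5.20 and 9.56 CPM in the acute arm and 1.73, 2.96 and 4.86 CPM in the chronic arm, and 22 of 26 chronic libraries lay below the lowest acute one. With cocaine it measured 3.38, 6.15 and 10.8 CPM against 1.95, 3.66 and 6.72 CPM. The differences were -0.84 (SE 0.11, edgeR adjusted p = 3.7e-09) under saline and -0.75 (SE 0.11, adjusted p = 2.3e-08) under cocaine. The other 6 differences of Gadd45a lay between -0.08 and 0.03, none called, and the test of PFC against each other region is given below.

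Gadd45g showed another regional pattern, lower in chronic libraries in AMY and VTA at both doses and in Nac under cocaine. In AMY it measured 7.84, 12.7 and 17.9 CPM with acute and 6.40, 9.201 and 13.1 CPM with chronic cocaine, and 29 of 30 chronic libraries lay below the acute median. In VTA the medians were 10.2 CPM with acute and 7.20 CPM with chronic cocaine, and 28 of 29 chronic libraries lay below the acute median. In Nac the medians were 10.3 and 8.43 CPM, with 29 of 29 chronic libraries below the acute median. Under cocaine AMY gave a difference of -0.42 (SE 0.06, edgeR adjusted p = 2.1e-07), VTA -0.47 (SE 0.08, adjusted p = 4.2e-07) and Nac -0.38 (SE 0.11, adjusted p = 0.006232). Under saline they were -0.26 in AMY and -0.39 in VTA, both called, and -0.08 in Nac, not called. That Nac value rests on a library with 45.8 CPM in the chronic saline arm: without that library the difference was -0.28 (edgeR adjusted p = 0.01282), and without all libraries that stand apart -0.29 (adjusted p = 0.004689). In PFC the differences were -0.17 under cocaine and -0.18 under saline, neither called alone.

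Of the TET genes, Tet3 was the one called by schedule at a single dose, lower in chronic libraries in PFC, AMY and VTA at both doses. In PFC it measured 55.9, 97.8 and 128 CPM with acute and 50.7, 66.5 and 93.5 CPM with chronic cocaine, and 50.2, 91.4 and 120 CPM against 40.2, 68.3 and 80.9 CPM with saline. Under saline, 24 of 28 acute libraries lay above the highest chronic one. The differences were -0.48 (SE 0.06, edgeR adjusted p = 5.2e-10) under cocaine and -0.44 (SE 0.06, adjusted p = 1.9e-08) under saline. They were smaller in AMY, at -0.12 and -0.17, and in VTA, at -0.24 and -0.20. Tet1 ran the other way, uncalled at a single dose: its differences in PFC were 0.18 at both doses, and it had medians of 14.0 CPM with acute and 16.2 CPM with chronic cocaine there. Tet2 differed by at most 0.10 in any region.

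The methyltransferases moved less. Dnmt1 was lower in chronic libraries in VTA, at 53.6, 65.7 and 79.7 CPM with acute and 48.4, 59.2 and 63.6 CPM with chronic cocaine, and 29 of 29 chronic libraries lay below the acute median. The difference was -0.18 (SE 0.03, edgeR adjusted p = 9.8e-06) under cocaine and -0.21 (SE 0.03, adjusted p = 1.1e-07) under saline. It was also called in Nac under saline, at -0.12 (adjusted p = 0.0222), and this call was lost without the libraries that stand apart (-0.08, adjusted p = 0.0571). Dnmt3a gave the one rise, 0.21 in Nac under cocaine (SE 0.06, adjusted p = 0.0083), with medians of 149 CPM acute and 164 CPM chronic. The 4 combinations of sex and housing rose by 0.03 to 0.50 in mean log2 CPM. The chronic arm held a library of 408 CPM that stands apart, where the next in its group had 189 CPM. Within the 1000s the rise was 0.17 and not called (adjusted p = 0.161). In VTA, Dnmt3a was lower by schedule under saline (-0.11, SE 0.04, adjusted p = 0.01365) and stood at -0.09 under cocaine, not called (adjusted p = 0.0535).

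Over both doses together, a comparison added after the data were seen, 18 of 32 tests were called, 15 lower and 3 higher in chronic libraries. The higher ones were Tet1 in AMY (0.10, SE 0.03, edgeR adjusted p = 0.0126) and PFC (0.18, SE 0.05, adjusted p = 0.00719) and Dnmt3a in Nac (0.15). Among the lower ones were Gadd45g in PFC (-0.18) and Dnmt1 in AMY (-0.07), Nac (-0.07) and PFC (-0.06), beside the genes named above. The background was large, with 19.4%, 16.7%, 16% and 29.1% of all genes called lower in AMY, Nac, PFC and VTA and 17.7%, 19.9%, 20.3% and 27.9% called higher. DESeq2 called 19 and limma voom 18 of the 32.

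**Figure D3:**
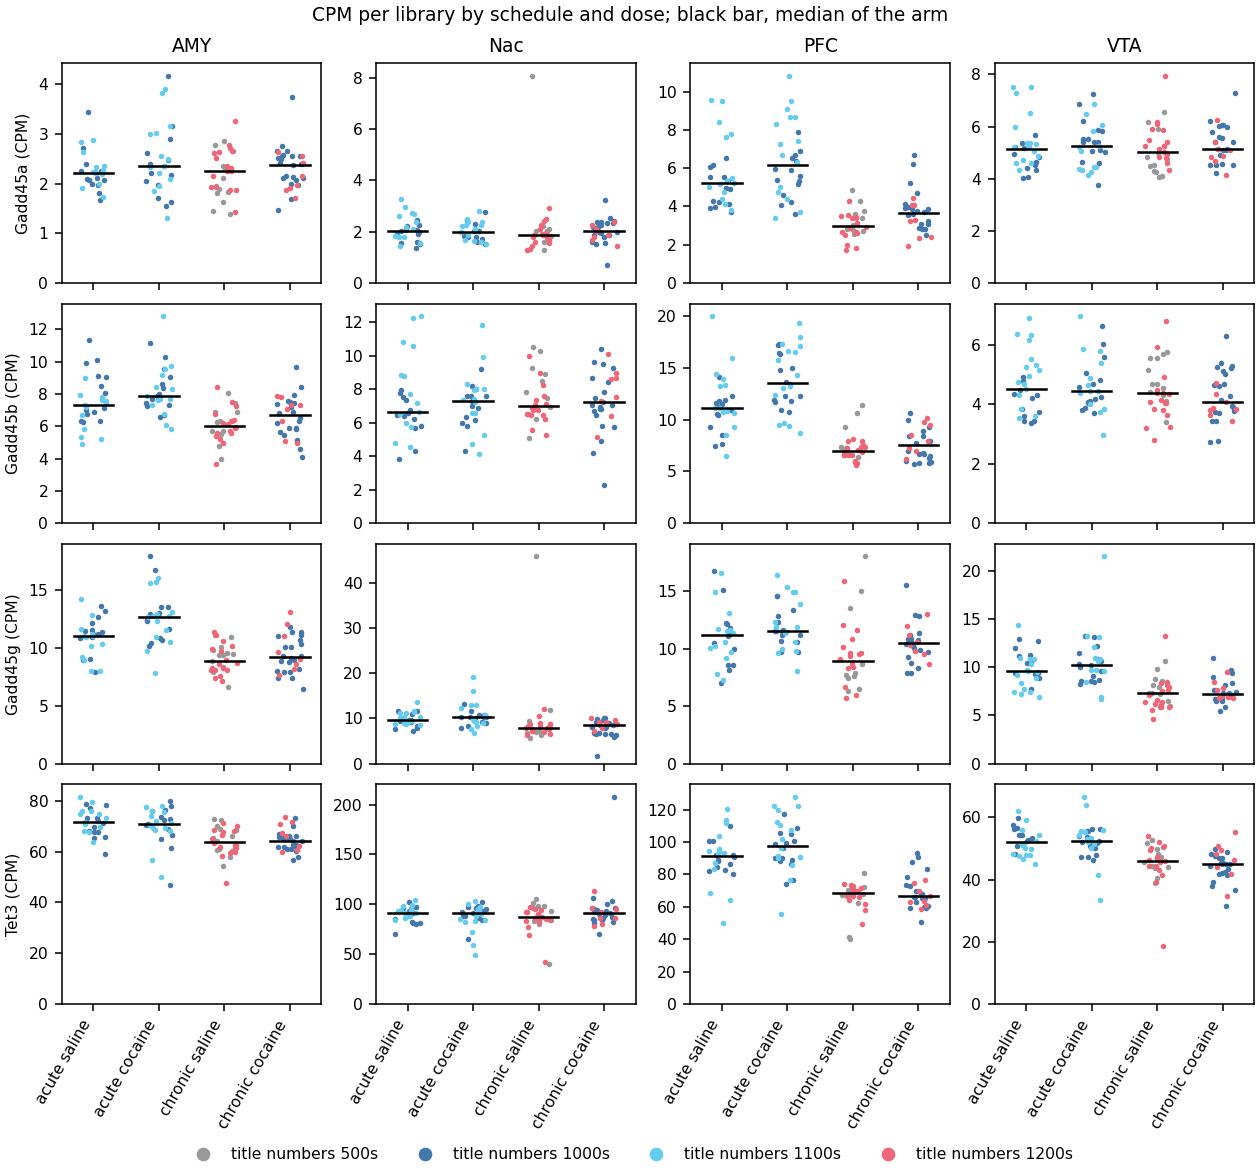
CPM of Gadd45a, Gadd45b, Gadd45g and Tet3 in each library by schedule and dose, with 1 panel for each gene and region; points are coloured by number series and black bars are medians of the arm. In PFC the chronic medians lie below the acute ones for Gadd45a, Gadd45b and Tet3 at both doses. Chronic medians of Gadd45b were 7.51 and 7.03 CPM with cocaine and saline, against acute medians of 13.6 and 11.1 CPM. Only under cocaine does a number series hold both schedules, so under saline series and schedule cannot be told apart.

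Many genes differed by schedule, and the calls of the members are to be read against that. Under cocaine, the share of all genes called lower in chronic libraries was 20% in VTA, 10.9% in Nac, 9.75% in AMY and 8.66% in PFC, and the share called higher was 18.2%, 13.4%, 8.64% and 9.89% in that order. Of the 8 genes, 3 each were called lower in AMY, PFC and VTA and 1 in Nac. Under saline the shares in AMY, Nac, PFC and VTA were 11.1%, 9.86%, 11.3% and 22.2% lower and 9.27%, 11%, 12% and 21.4% higher, and 3, 1, 3 and 4 of the 8 were called lower. The median difference of the 8 genes was -0.08, 0.06, -0.13 and -0.11 under cocaine in AMY, Nac, PFC and VTA, and -0.07, 0.05, -0.13 and -0.09 under saline, while the median over all genes lay between -0.01 and 0.01. DESeq2 called 13 of 32 under cocaine and 11 under saline, and limma voom 11 and 11.

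Number series and schedule overlap, so the comparison was repeated where 1 series holds both arms. This is the case for cocaine in the 1000s, with 14 to 16 acute and 20 to 22 chronic libraries a region. Even there, the title numbers of all acute libraries lay below those of all chronic ones. Schedule and the order of the numbers therefore cannot be told apart within the 1000s. Of the 11 calls under cocaine, the 10 lower ones stood also within the 1000s. There, Gadd45b in PFC was at -0.87, Gadd45a at -0.52 and Tet3 at -0.42. In AMY, Gadd45g was at -0.45, Gadd45b at -0.34 and Tet3 at -0.13, in VTA Gadd45g was at -0.41, Tet3 at -0.25 and Dnmt1 at -0.17, and in Nac Gadd45g was at -0.39. The share of all genes called lower within the 1000s was 9.13% in VTA, 7.07% in AMY, 4.34% in PFC and 2.36% in Nac. Under saline no series holds both schedules, so schedule and series cannot be told apart there. With the series as a covariate, which borrows its size from the cocaine arms, 4 of the 11 saline calls were left: Gadd45b in PFC (-0.78) and Dnmt1 (-0.26), Tet3 (-0.33) and Gadd45g (-0.48) in VTA. In that fit 0.982%, 0.114%, 0.494% and 9.67% of all genes were called under saline in AMY, Nac, PFC and VTA. Under cocaine the same fit called 21.4%, 13.3%, 11.9% and 32.4% of all genes and 10 members, all but Dnmt3a in Nac.

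The schedule difference did not depend detectably on dose, housing or sex for any member. For dose, 0 of 32 tests were called with 0% of all genes in each region, and for housing 0 of 32 with 0%. Unadjusted p-values under 0.05 were found for Tet3 (0.18) and Gadd45g (-0.31) in Nac by dose, and for Gadd45a in PFC by housing (0.32). For sex, 0 of 32 were called, with 1.38% of all genes in Nac, 1.22% in PFC, 0.265% in AMY and 0% in VTA. The lowest p was that of Gadd45b in PFC, where the fall was smaller in females by 0.31 (SE 0.11, edgeR adjusted p = 0.108). Tet1 in PFC (-0.27), Gadd45a in Nac (0.34) and Dnmt3a in AMY (-0.13) were the other tests with an unadjusted p under 0.05. DESeq2 and limma voom called 0 of 32 in each of the 3 comparisons, which were added after the data were seen. All 4 combinations of sex and housing were lower in chronic libraries for each of the 10 lower calls under cocaine.

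The regional patterns themselves were tested, as the schedule difference in a region minus that in another over both doses, in the fit across all libraries. Gadd45a differed between PFC and each other region (AMY minus PFC 0.75, Nac minus PFC 0.83, PFC minus VTA -0.80). So did Gadd45b (0.43, 0.79 and -0.65) and Tet3 (0.33, 0.50 and -0.26). The share of all genes called was 11.3% for AMY against PFC, 16% for Nac against PFC and 36.5% for PFC against VTA. Gadd45b also differed between AMY and Nac (-0.36, background 26.4%) and AMY and VTA (-0.22, background 25.4%); the latter call was lost without the libraries that stand apart (-0.14, edgeR adjusted p = 0.1967). Dnmt1 differed between VTA and each other region by 0.12, and 42.9% of all genes differed between Nac and VTA. Gadd45g differed between PFC and VTA alone (0.24). These tests were added after the data were seen. They took all libraries as separate, although title numbers recur across regions, and were not repeated with the title number as a block.

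**Figure D4:**
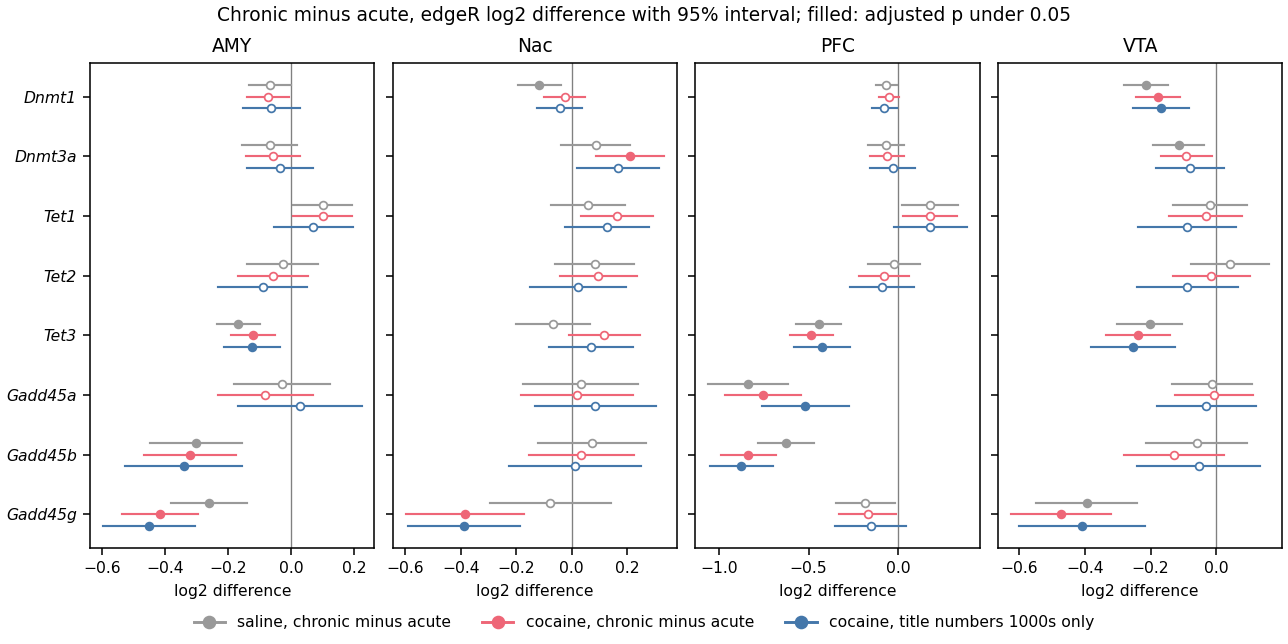
Chronic minus acute difference of each gene in each region (edgeR, log2 scale, points with 95% intervals) under saline, under cocaine, and under cocaine within number series 1000s; filled points have an adjusted p under 0.05. The filled points lie left of 0 except Dnmt3a in Nac under cocaine (0.21), and Gadd45a, Gadd45b and Tet3 lie farthest left in PFC.

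Other measures differed by schedule in the same libraries, some of them barely. The acute and chronic ranges overlapped for every list and region named here. The level of the activity-regulated list (18 genes such as Fos, Egr1 and Arc), as the mean log2 CPM, had medians of 5.91 in acute and 4.83 in chronic PFC libraries. The pairs of medians for AMY, Nac and VTA were 4.39 and 3.82, 4.66 and 4.29, and 3.06 and 2.40. The chronic range in PFC was 4.46 to 5.57 and the acute one 4.96 to 6.47. The list of 12 glucocorticoid-responsive genes had medians of 5.10 and 4.72 in PFC. Of cell type markers, the dopamine neuron list had medians of 8.02 in acute and 8.72 in chronic VTA libraries, and the medial amygdala and hypothalamus list 1.97 and 1.20 there. Neuronal markers stood at 9.72 and 9.69 in PFC and at 9.30 and 9.45 in VTA. Microglial ones stood at 5.01 and 5.04 in PFC, 4.74 and 4.87 in AMY and 4.44 and 4.78 in VTA. In AMY the astrocyte list had medians of 8.21 and 8.43 and the endothelial list 4.46 and 4.70. The dividing cell list had 0.59 and 0.85 in PFC and the choroid plexus list 0.04 and 0.25. For the striatal list the medians were 8.35 and 8.63 in Nac. The part of these in the differences of the 8 genes was not tested.

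Gene lists of the same pathway and of inducible programmes give the setting of these differences. They are described by counts over 4 regions, and were drawn up with earlier results of these data known. The share of all genes called lower was, by region, 8.66% to 20% under cocaine and 9.86% to 22.2% under saline. The share called higher was 8.64% to 18.2% under cocaine and 9.27% to 21.4% under saline. Of activity-regulated genes, 49 of 71 gene-by-region tests were called lower in chronic libraries under cocaine and 0 higher, and 48 of 71 lower under saline. In PFC under cocaine, the median of this list was -0.94 (all genes 0.01), with Fosb at -1.52, Egr2 at -1.87, Fosl2 at -0.93 and Nr4a3 at -0.88. Of glucocorticoid-responsive genes, 33 of 48 tests under cocaine and 36 of 48 under saline were called lower, and 1 higher at each dose. In PFC these included Per1 (-0.70), Tsc22d3 (-0.58), Sgk1 (-0.78) and Cdkn1a (-0.96). Of genes responsive to p53, known to act upstream of Gadd45a, 11 of 28 tests were called lower at each dose, with 3 higher under cocaine and 4 higher under saline; Cdkn1a is on both of the last lists. Bbc3, a proapoptotic p53 target, was among the higher ones, at 0.27 in Nac and 0.25 in VTA under cocaine. Within the 1000s, 43 of 72 activity-regulated, 30 of 48 glucocorticoid-responsive and 10 of 28 p53-responsive tests were called lower under cocaine and 0 higher. The share of all genes called lower there was 2.36% to 9.13%, depending on the region. Chronic cocaine against chronic saline called 7 of 71 activity-regulated tests, all higher and in PFC, where 7.12% of all genes were called in either direction.

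Genes of the wider methylation machinery were called in both directions, and their counts are to be read against the shares of all genes under cocaine, 8.66% to 20% lower and 8.64% to 18.2% higher depending on the region. Of the partners of maintenance and de novo methylation, 9 of 32 tests were called lower and 3 higher under cocaine. Uhrf2, which binds hemimethylated and hydroxymethylated DNA, was lower in all 4 regions, at -0.17, -0.15, -0.11 and -0.16 for AMY, Nac, PFC and VTA under cocaine, and at -0.21, -0.22, -0.20 and -0.26 under saline. Within the 1000s Uhrf2 was called in AMY (-0.16) and VTA (-0.10) and in neither Nac nor PFC, and the list gave 5 lower and 1 higher of 33. Trdmt1, an RNA methyltransferase of the same protein family, was higher under saline in all 4, by 0.13 to 0.19, where schedule and series cannot be told apart. Under cocaine no gene of this list was called higher in Nac or VTA, and within the 1000s none in AMY, Nac or PFC. Of methyl-CpG readers, 2 of 36 tests were called higher and 2 lower under cocaine, with Mbd6 at 0.42 in Nac and -0.28 in VTA, and at 0.38 and -0.30 within the 1000s. Of base excision genes, 6 of 50 were called higher and 5 lower, and 1 and 3 within the 1000s. Neil1 was higher by 0.37 in PFC under saline, and Neil2 by 0.22 in VTA under cocaine, the latter not called within the 1000s. Of TET partners and cofactor enzymes, 6 of 32 were called higher and 5 lower, and 2 and 1 within the 1000s. Cxxc5, which binds unmethylated CpG, was lower in PFC (-0.21) and higher in AMY (0.18), and within the 1000s it was called in AMY (0.22) and not in PFC. Sirt1 was lower in VTA, at -0.17 and, within the 1000s, -0.18. Of deaminases, 2 of 12 were called higher, and 1 within the 1000s.

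Number series were compared where groups hold 2 of them. In the acute groups, 1100s minus 1000s gave 0 of 32 calls, with 4.44%, 0.958%, 1.78% and 0.0599% of all genes called in AMY, Nac, PFC and VTA. Gadd45a in PFC came closest, at 0.30 (SE 0.09, edgeR adjusted p = 0.05941), and 5 of 32 had an unadjusted p under 0.05. limma voom called none and DESeq2 called 1. In chronic saline, 500s minus 1200s gave 4 calls, all in Nac: Dnmt1 (-0.29), Tet1 (-0.27), Gadd45a (0.53) and Gadd45g (0.59). The background was 38.4% in Nac, 13.4% in PFC, 3.54% in AMY and 0.0762% in VTA. The Nac calls rest on 1 library, replicate 6 among isolated females on chronic saline. It measured 34.6 CPM of Dnmt1, 8.08 CPM of Gadd45a and 45.8 CPM of Gadd45g. Without it the 4 differences were -0.06, 0.07, -0.02 and -0.05, 0 of 32 were called, and 15 of 19387 genes were called in Nac.

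The 8 genes also varied together within groups, and that variation ran with a property of the library. For each library, the median log2 deviation of genes with over 10 kb of exons was taken minus that of genes with under 2 kb (1441 and 1832 genes, members left out), and is called the long-to-short index. After removal of group means, TET genes rose with the index in each region, with Pearson's r from 0.71 (Tet1, AMY) to 0.91 (Tet1, Nac). Dnmt3a gave 0.51 to 0.81 and Dnmt1 0.48 to 0.76. The short GADD45 genes fell with it, Gadd45g at -0.47 to -0.85, Gadd45a at -0.34 to -0.67 and Gadd45b at -0.29 to -0.44. These 32 correlations over 112 to 115 libraries are a description, with no test. The lowest index, -1.91, was that of the Nac library with 45.8 CPM of Gadd45g, and the highest, 1.38, that of replicate 3 of the isolated males with chronic cocaine in Nac, which measured 408 CPM of Dnmt3a and 208 CPM of Tet3.

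**Figure D5:**
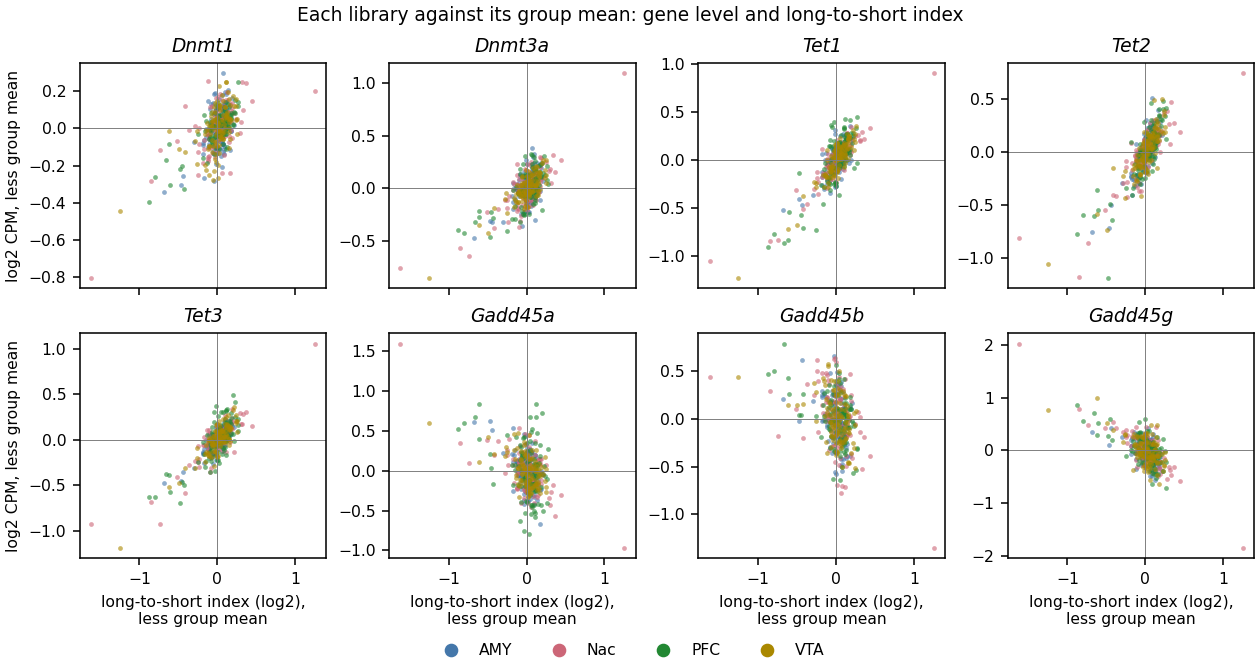
Log2 CPM of each gene in each library less its group mean, against the long-to-short index less its group mean (log2), coloured by region. TET and DNMT genes rise with the index (r from 0.48 to 0.91) and GADD45 genes fall (r from -0.29 to -0.85), and 3 libraries of Nac and VTA lie far from the rest.

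The index was lower in the chronic than in the acute arms of AMY, PFC and VTA. With acute and chronic cocaine its medians were 0.05 and -0.04 in AMY, 0.02 and -0.05 in PFC, 0.03 and -0.03 in VTA, and 0.01 in both arms in Nac. With saline they were 0.03 and -0.01 in AMY, 0.04 and 0.01 in PFC, and 0.06 and -0.02 in VTA. With the index as a covariate, chosen after seeing the data, Gadd45b in PFC under cocaine was at -0.87, Gadd45a at -0.80 and Tet3 at -0.43, all called. Tet3 in AMY under cocaine was at -0.09 in place of -0.12, and in VTA under saline at -0.12 in place of -0.20, both called. The covariate fit called 18 of 32 tests under cocaine and 19 under saline, among them Tet1, higher in chronic PFC libraries by 0.24 at both doses. Of the schedule calls made without the index, 1 was lost with it. It called 19.1%, 26.9%, 24.8% and 39.4% of all genes under cocaine in AMY, Nac, PFC and VTA, and 19.7%, 28.3%, 29.9% and 43.8% under saline. Genes within 25% of the exon length of Gadd45b had a median difference of 0.05 in PFC under cocaine, and 5% of them lay below -0.20. For Tet3 the same values were -0.03 and -0.16.

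Pairs of paralogs were correlated within each region on log2 CPM less the group mean, 28 pairs in all. Tet2 and Tet3 gave Pearson's r of 0.765, 0.861, 0.793 and 0.808 for AMY, Nac, PFC and VTA (Spearman's rho 0.68, 0.74, 0.65 and 0.71; permutation p = 1e-05 each, the smallest that the resamples can give, and adjusted p under the threshold). Gadd45b and Gadd45g gave r of 0.46, 0.40, 0.51 and 0.16 in the same order, the last short of the threshold (permutation p = 0.107, adjusted p = 0.120). Gadd45a and Gadd45b gave 0.06, 0.55, 0.57 and 0.46. The median r over the 28 pairs was 0.56. It was 0.50 without the 2 libraries farthest from the median, 0.65, 0.54, 0.68 and 0.56 within the 500s, 1000s, 1100s and 1200s, and 0.134 once the index was also removed. Given the index, Tet2 and Tet3 stood at 0.32, 0.47, 0.43 and 0.27, Tet1 and Tet2 at 0.0038, 0.32, 0.07 and 0.16, and Tet1 and Tet3 at -0.0014, 0.05, 0.18 and 0.05.

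The genes whose libraries varied most like a member were named by mean r over the 4 regions, among genes tested in all of them. For Gadd45b they were Dusp1 (mean r 0.60), Rasl10a (0.585), Sertad1 (0.58), Ephx4 (0.58) and Dusp6 (0.57). For Gadd45g they were Fau, Rpl10a, Cnpy2, Trmt112 and Rpl41 (0.65 to 0.66), and for Gadd45a Bag1, Slc25a33, Ndufa5, Pomp and Glrx3 (0.59 to 0.64). Without the libraries that stand apart, Ephx4, Cnpy2, Rpl41, Ndufa5 and Pomp were no longer among the 5. Kmt2a, a histone methyltransferase, was among the 5 of Dnmt3a (0.84), Tet2 (0.85) and Tet3 (0.85), and Kmt2c among those of Tet1 (0.83). Dnmt1 was closest to Adar (0.82) and Numa1 (0.79). The exon length of the 5 genes most like each member was near its own in the median, though single ones were not, such as 1 of 4.68 kb for Tet2 and 1 of 31.4 kb for Tet1. The median was 18.2 kb for Dnmt3a, 18.8 kb for Tet1, 16.1 kb for Tet2 and 16.6 kb for Tet3, but 1.89, 1.65 and 1.23 kb for Gadd45a, Gadd45b and Gadd45g, against 4.24 kb over all genes tested.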

How the data were processed

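RNA was sequenced from 454 mouse brain libraries, made per the labels with a stranded poly(A) kit from 300 ng of RNA, in pools of 21, each pool sequenced 3 times, with 50-base single-end reads. The authors deposited a table of raw read counts per gene, 43346 genes by library. The submitters' processing notes name STAR, featureCounts, limma and the builds GRCm38 and mm10, without roles; no source used here gives the strand setting or versions. Of the genes, 42462 had a symbol, and those without held 0.11% of counts. Library totals were 11.2 to 52.3 M, which limits the precision of low genes.

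The 16 groups of a region (sex, housing, dose, schedule) were fitted as cell means with edgeR 4.0.16 (TMM, filterByExpr, robust glmQLFit, glmQLFTest, two-sided, Benjamini-Hochberg over all genes of the region, threshold 0.05) in R 4.3.3. Regions were compared in 1 fit of 64 groups. Alternatives were DESeq2 1.42.0, limma voom 3.58.1, DESeq2 size factors, no filter, the number series as a covariate, and removal of libraries that stand apart. A library stood apart with a robust z over 5 on 4 principal components of 3000 variable genes, over 8 on a marker list of another tissue part, or with transcripts of the other sex at 5% or more. The tests were checked on simulated data. CPM used TMM factors over all libraries. Pair correlations used 100000 resamples within groups. Title numbers, 129 in all and 86 in all 4 regions, recur across regions, and the labels do not say that they mark animals; they served as a block only in an alternative. The 8 members were all named, likeness took the 5 genes of highest mean r, and list genes named are those past the threshold, lowest p first. Members and lists were chosen with earlier results of these data known.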

Additional observations from a re-analysis of the deposited data

Results flagged for a closer look

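The level of each gene was screened within each group for a highest or lowest library whose gap to its neighbour, over the range of the group, exceeded Dixon's 95% value. This held for 70 of 512 combinations of gene and group (13.7%), where chance gives about 1 in 20, in 35 libraries, and 26 of the 70 lie in libraries that stand apart. The values below are CPM, each with its group and replicate number.

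Dnmt1 in Nac was low at 59.4 in isolated males with acute cocaine (replicate 5), 34.6 in isolated females with chronic saline (replicate 6) and high at 78.5 in group-housed females with chronic cocaine (replicate 2). Dnmt1 in PFC was low at 67.2 in isolated males with acute saline (replicate 7), 72.3 in isolated females with acute cocaine (replicate 7), 69.4 in isolated females with chronic saline (replicate 5). Dnmt1 in VTA was low at 40.3 in isolated males with chronic saline (replicate 2). Dnmt3a in AMY was low at 78.5 in group-housed males with acute cocaine (replicate 1), 94.8 in group-housed females with chronic cocaine (replicate 7). Dnmt3a in Nac was low at 95.5 in group-housed males with chronic saline (replicate 4), 82.3 in isolated females with chronic saline (replicate 6) and high at 408 in isolated males with chronic cocaine (replicate 3). Dnmt3a in PFC was low at 69.7 in isolated females with acute saline (replicate 5), 67.9 in group-housed females with chronic saline (replicate 7). Dnmt3a in VTA was low at 76.3 in group-housed males with acute cocaine (replicate 7), 69.6 in isolated females with chronic cocaine (replicate 3), 52.2 in isolated males with chronic saline (replicate 2).

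Tet1 in AMY was low at 10.6 in group-housed males with acute cocaine (replicate 1) and high at 21.0 in group-housed females with acute saline (replicate 5). Tet1 in Nac was low at 18.6 in group-housed females with chronic cocaine (replicate 5), 9.72 in isolated females with chronic saline (replicate 6) and high at 45.7 in isolated males with chronic cocaine (replicate 3). Tet1 in PFC was low at 7.67 in isolated males with acute saline (replicate 7), 7.70 in isolated females with acute cocaine (replicate 7). Tet1 in VTA was low at 12.9 in isolated females with chronic cocaine (replicate 3), 20.2 in group-housed females with chronic saline (replicate 8), 8.69 in isolated males with chronic saline (replicate 2). Tet2 in AMY was low at 28.9 in group-housed males with acute cocaine (replicate 1). Tet2 in Nac was low at 43.5 in isolated females with acute cocaine (replicate 4), 24.6 in isolated males with acute cocaine (replicate 5), 45.4 in group-housed males with chronic cocaine (replicate 5), 36.1 in isolated females with chronic saline (replicate 6) and high at 122 in isolated males with chronic cocaine (replicate 3). Tet2 in PFC was low at 22.0 in isolated females with acute saline (replicate 5). Tet2 in VTA was low at 19.1 in isolated females with chronic cocaine (replicate 3), 16.1 in isolated males with chronic saline (replicate 2) and high at 49.2 in isolated females with acute cocaine (replicate 3), 46.8 in group-housed females with chronic cocaine (replicate 8).

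Tet3 in AMY was low at 56.8 in group-housed females with acute cocaine (replicate 8), 46.8 in group-housed males with acute cocaine (replicate 1), 50.2 in isolated females with acute cocaine (replicate 7), 47.6 in isolated females with chronic saline (replicate 1). Tet3 in Nac was low at 65.0 in isolated females with acute cocaine (replicate 4), 40.2 in isolated females with chronic saline (replicate 6) and high at 208 in isolated males with chronic cocaine (replicate 3). Tet3 in PFC was low at 50.2 in isolated females with acute saline (replicate 5), 50.7 in isolated females with chronic cocaine (replicate 1), 40.2 in group-housed females with chronic saline (replicate 7), 41.6 in isolated females with chronic saline (replicate 5), 58.3 in isolated males with chronic saline (replicate 2). Tet3 in VTA was low at 33.5 in group-housed males with acute cocaine (replicate 7), 31.5 in isolated females with chronic cocaine (replicate 3), 18.6 in isolated males with chronic saline (replicate 2) and high at 66.6 in group-housed females with acute cocaine (replicate 5).

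Gadd45a in Nac was high at 8.08 in isolated females with chronic saline (replicate 6). Gadd45a in PFC was high at 6.72 in isolated females with chronic cocaine (replicate 1). Gadd45a in VTA was high at 7.30 in group-housed males with acute saline (replicate 7), 7.29 in isolated females with chronic cocaine (replicate 3), 7.95 in isolated males with chronic saline (replicate 2). Gadd45b in Nac was high at 11.8 in group-housed males with acute cocaine (replicate 6). Gadd45b in PFC was low at 6.46 in isolated females with acute saline (replicate 4). Gadd45b in VTA was high at 6.97 in group-housed females with acute cocaine (replicate 7). Gadd45g in AMY was low at 7.88 in group-housed females with acute saline (replicate 2) and high at 14.2 in group-housed males with acute saline (replicate 5). Gadd45g in Nac was low at 1.66 in isolated males with chronic cocaine (replicate 3) and high at 19.2 in isolated males with acute cocaine (replicate 5), 45.8 in isolated females with chronic saline (replicate 6). Gadd45g in PFC was high at 16.4 in isolated females with acute cocaine (replicate 7), 16.6 in group-housed males with acute saline (replicate 7). Gadd45g in VTA was high at 21.5 in group-housed males with acute cocaine (replicate 7).

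The schedule difference, chronic minus acute over both doses, differed between regions by a test of that difference in the fit over all libraries (edgeR, adjusted p under 0.05) for 21 of 48 combinations. The share of all genes called was 26.4% for AMY against Nac, 11.3% for AMY against PFC, 25.4% for AMY against VTA, 16% for Nac against PFC, 42.9% for Nac against VTA and 36.5% for PFC against VTA. AMY minus Nac gave -0.21 for Dnmt3a, -0.36 for Gadd45b and -0.16 for Tet3. AMY minus PFC gave 0.75 for Gadd45a, 0.43 for Gadd45b and 0.33 for Tet3. For AMY minus VTA the values were 0.12 for Dnmt1 and -0.22 for Gadd45b. Nac minus PFC gave 0.22 for Dnmt3a, 0.83 for Gadd45a, 0.79 for Gadd45b and 0.50 for Tet3. Nac minus VTA gave 0.12 for Dnmt1, 0.25 for Dnmt3a and 0.24 for Tet3. PFC minus VTA gave 0.12 for Dnmt1, -0.80 for Gadd45a, -0.65 for Gadd45b, 0.24 for Gadd45g, 0.19 for Tet1 and -0.26 for Tet3. Without the libraries that stand apart the call of Tet1 between PFC and VTA was lost (0.14, edgeR adjusted p = 0.05077), as was that of Gadd45b between AMY and VTA (-0.14, adjusted p = 0.1967).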

How the results depend on the processing

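The single tests within regions followed through the alternatives were those called for schedule at a single dose or for number series. Gadd45b in PFC and Gadd45g in AMY for acute cocaine and Tet3 in AMY for sex by housing, all uncalled, were added. Of the results, 200 kept their direction and side of the threshold, 14 lost the call, 2 gained it and 6 reversed. Calls gained by other tests are not in this count. The reversals are the Nac differences between the 500s and 1200s: without the libraries that stand apart Gadd45g was at -0.153, Gadd45a at -0.0319 and Tet1 at 0.0792, and without replicate 6 of isolated females on chronic saline at -0.0504, -0.0202 and 0.0722. Both settings called 0 of 32 in place of 4. DESeq2 called 1 of 32 between the 1100s and 1000s. Acute cocaine gave 1 call without the libraries that stand apart and 1 with the index as a covariate, Gadd45b in PFC both times, and 0 without each of the 5 replicates of AMY isolated males with acute cocaine in turn. With the number series as a covariate 4 schedule calls remained under saline in place of 11. With the index there were 19 under saline and 18 under cocaine, and 1 of the earlier schedule calls was lost. The cause was not tested. With the title number as a replicate block, 42 of 48 region tests were called in place of 43; the blocked Gadd45g difference between Nac and VTA was 0.07 (adjusted p = 0.0804). The median pair correlation fell to 0.134 given the index, where Tet1 with Tet3 in AMY (-0.00136) and Dnmt1 with Dnmt3a in Nac (-0.308) and PFC (-0.0224) changed sign, as did Gadd45a with Gadd45g in PFC within the 1200s (-0.00808). These are the sign changes among pairs past the threshold; of the others, Gadd45a turned negative given the index with Gadd45b in AMY (-0.11) and with Gadd45g in AMY (-0.17) and VTA (-0.26), and so did Gadd45b with Gadd45g in VTA (-0.07). The index and the removal of replicate 6 were chosen after seeing the data. Depth limits Gadd45a most, with 8 reads in its lowest library.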
